A study of Mus musculus with 7 samples.

Results

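Fibroblast growth factor (FGF) signalling was followed through 10 genes in mouse neural stem cells: the receptor genes Fgfr1, Fgfr2 and Fgfr3, the ligand gene Fgf2, and the feedback and target genes Spry1, Spry2, Spry4, Etv4, Etv5 and Dusp6. They were taken by gene symbol from a table of 18145 genes, which listed all 10, and all 10 passed the filter on low values. RNA had been sequenced at passage 1 from 3 lines labelled WT, 2 labelled Tet-TFoCa (written Tet-FoCa in the design text) and 2 labelled Tet-TMut, here called WT, TFoCa and TMut. Each library came from its own line, per the design text. The series title sets hydroxymethylation of DNA against its formylation and carboxylation. TET enzymes make all 3 marks by stepwise oxidation of 5-methylcytosine, and the labels do not give the alleles, or say which step each mutant genotype affects. The labels also do not give strain, age, culture medium or added growth factors, so the amount of FGF supplied to the cells is not known here. Values are normalized counts, which are gene counts divided by a size factor for each library. Fold changes are log2 values ± standard error (SE) from limma, fitted to log2(normalized count + 1) in all 7 libraries (3 WT, 2 TFoCa and 2 TMut). P-values are Benjamini-Hochberg adjusted over all 18134 tested genes, and a gene was called to rise or fall at an adjusted p under 0.05. The p-values set each difference against the spread between lines of a genotype, pooled over the 3 genotypes and moderated across genes. Fits that leave out a TFoCa or TMut library keep 1 line of that genotype, so its own spread does not enter their p-values.

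Most FGFs are secreted proteins that bind receptor tyrosine kinases together with heparan sulfate chains on the cell surface. The active receptor drives the Ras-ERK kinase cascade, which switches on the ETS transcription factors Etv4 and Etv5 as well as inhibitors of the same cascade, among them the Sprouty proteins and the ERK phosphatase Dusp6. In neural stem cell cultures FGF2 is a standard mitogen, and FGF receptors are found on neural progenitors of the developing brain.

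Of the 3 receptor genes among the 10, TMut lines had less RNA of Fgfr2 and Fgfr3 than WT lines and, by a smaller margin, of Fgfr1. They had more RNA of Fgf2 and most feedback genes, whereas in TFoCa lines 1 of the 10 genes was called. In TMut versus WT 6 of the 10 genes rose (Fgf2, Spry1, Spry2, Spry4, Etv4 and Dusp6) and 3 fell (Fgfr1, Fgfr2 and Fgfr3), in a comparison where 38.8% of all tested genes were called, 18.4% as higher and 20.4% as lower. In TFoCa versus WT only Dusp6 rose, where 8.77% of all tested genes were called, 5.25% as higher and 3.52% as lower. In TMut versus TFoCa Spry2 rose and Fgfr2 and Fgfr3 fell, where 35.8% of all tested genes were called, 17.3% as higher and 18.5% as lower. The median log2 fold change of the 10 genes was 0.78 in TMut versus WT (all tested genes 0.00), 0.36 in TFoCa versus WT (all tested genes -0.02) and 0.27 between TMut and TFoCa (all tested genes -0.00). The comparisons share libraries (both mutant genotypes are set against the same WT lines), so their values are given side by side. The 10 genes were chosen with earlier results of these data known, so their counts of calls are not independent of the data.

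**Figure D1:**
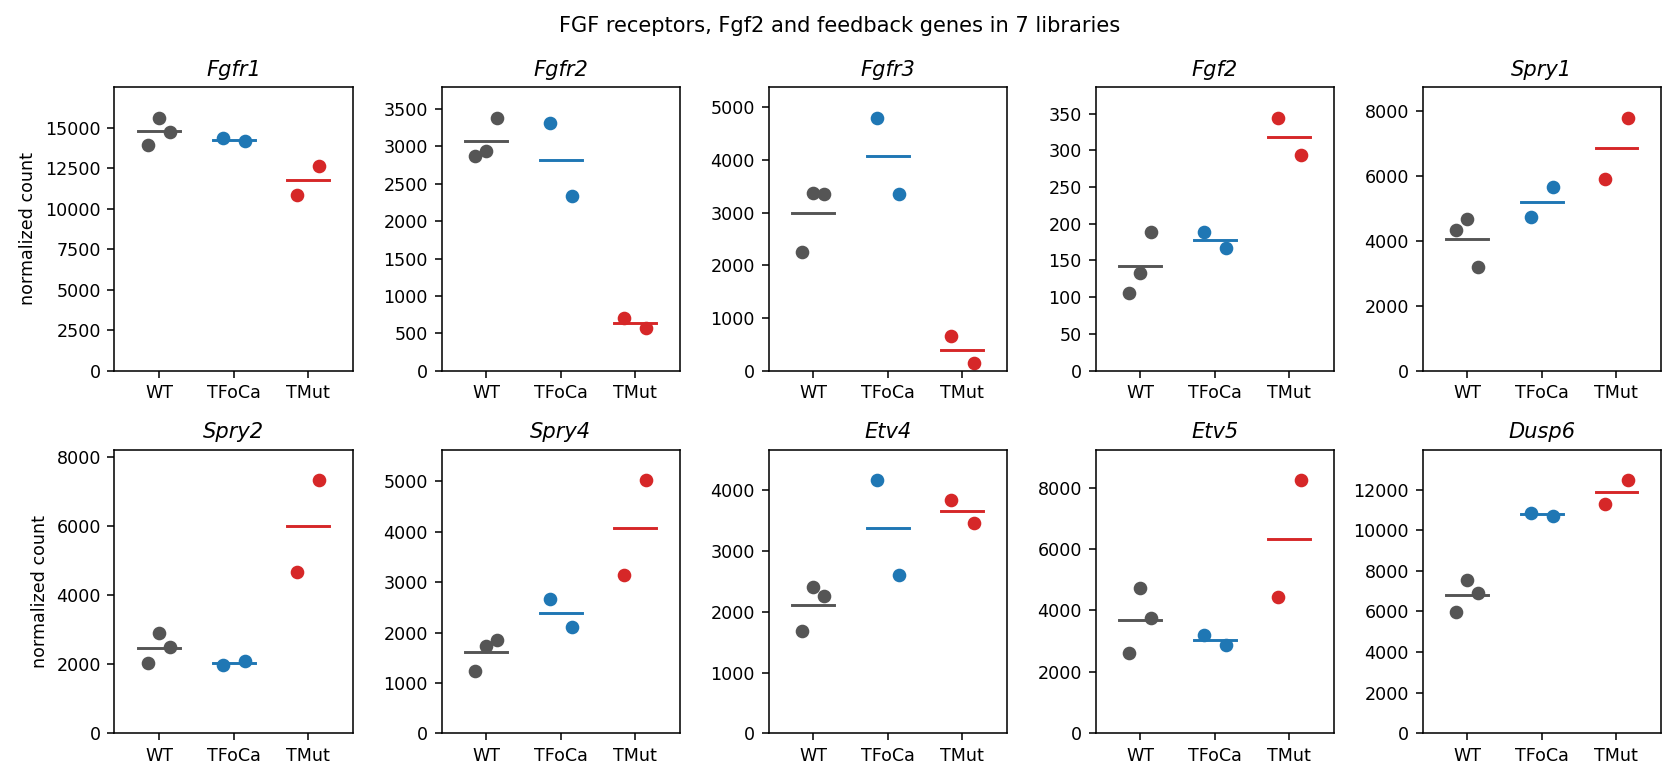
Normalized counts of the 10 genes, 1 panel per gene, with 1 point per library and a bar at the mean of each genotype (3 WT, 2 TFoCa and 2 TMut libraries); each vertical axis starts at 0. Fgfr2 and Fgfr3 are low in both TMut libraries, Fgf2, Spry2 and Spry4 are highest there, and Dusp6 is higher in both mutant genotypes than in WT.

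Each library held between 33340167 and 62545457 counted reads, and mitochondrial genes took 0.781% to 1.11% of them. All 15 neural stem cell markers were in the table with no library at 0, and their summed normalized count was 212530 to 219818 in WT, 172734 to 187759 in TFoCa and 139200 to 167669 in TMut. In TMut versus WT 12 of these 15 fell and 1, Vim, rose. Of 8 neuron markers all 8 fell in TMut (sums of 62661 to 65849 in WT and 8242 to 15035 in TMut). Of 7 measured astrocyte markers 6 fell and 1 rose, and of 7 measured oligodendrocyte lineage markers 5 fell and 0 rose. Of 12 mesenchymal markers 10 rose in TFoCa, and 6 rose and 2 fell in TMut, with sums of 143486 to 156294 in WT, 369876 to 425855 in TFoCa and 224541 to 306051 in TMut. Of 10 pluripotent cell markers 9 fell in TFoCa, and the sums were 12898 to 26429 in WT, 1199 to 1402 in TFoCa, 11713 in TMut replicate 1 and 42993 in TMut replicate 2. The table lists none of 8 microglia markers. These are bulk samples, in which fewer cells of a type and less RNA per cell cannot be told apart.

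Levels of different genes were compared per kilobase (kb) of exon. Dusp6 had the highest level in every library, with a mean of 2170 normalized counts per kb in WT, 3439 in TFoCa and 3788 in TMut. In WT it was followed by Fgfr1 (1495), Spry1 (1399), Spry2 (1183), Etv5 (903), Etv4 (683), Fgfr3 (417), Spry4 (338), Fgfr2 (297) and Fgf2 (21.0). The WT libraries of neighbours in this order overlapped except between Dusp6 and Fgfr1, Etv4 and Fgfr3, and Fgfr2 and Fgf2. In TFoCa the order after Dusp6 was Spry1 (1788), Fgfr1 (1444), Etv4 (1091), Spry2 (975), Etv5 (741), Fgfr3 (570), Spry4 (502), Fgfr2 (273) and Fgf2 (26.2). The TFoCa libraries overlapped between Etv4 and Spry2 and between Fgfr3 and Spry4. In TMut Spry2 (2875 per kb) and Spry1 (2356) stood next to Dusp6, followed by Etv5 (1545), Fgfr1 (1190), Etv4 (1177) and Spry4 (858), with Fgfr2 (61.6), Fgfr3 (55.8) and Fgf2 (47.0) at the bottom. The TMut libraries overlapped between Spry2 and Spry1, between Etv5 and Fgfr1, between Fgfr1 and Etv4, and between Fgfr3 and both of its neighbours, but not between the other neighbours.

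**Figure D2:**
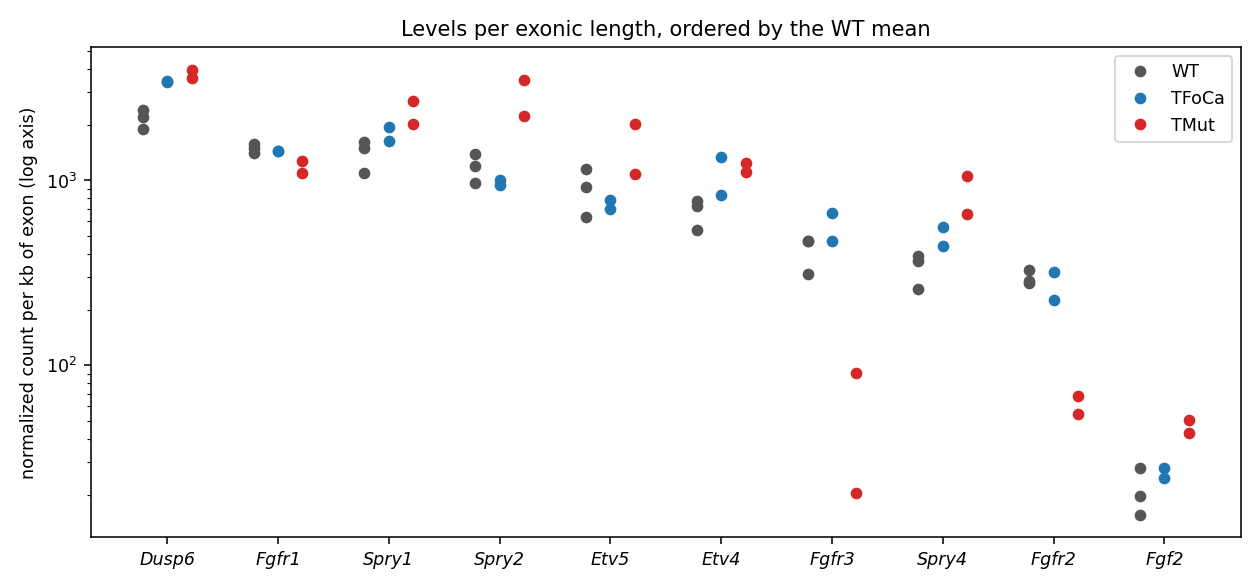
Normalized count per kb of exon of each gene on a log axis, with genes ordered by their WT mean and 1 point per library, coloured by genotype. Dusp6 lies highest in every library, and the TMut libraries of Fgfr2 and Fgfr3 lie near the level of Fgf2.

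The receptors Fgfr1, Fgfr2 and Fgfr3 are tyrosine kinases with an overlapping but unequal choice of ligands, and Fgfr3 is also a gene of astrocyte-lineage progenitors. Fgfr3 was at 2244, 3373 and 3349 normalized counts in WT replicates 1, 2 and 3, at 4804 and 3353 in TFoCa replicates 1 and 2, and at 652 and 146 in TMut replicates 1 and 2. Both TMut libraries lay below every other library, and the WT and TFoCa libraries overlapped. Fgfr3 fell in TMut versus WT (log2 fold change -3.24 ± 0.54, limma adjusted p = 0.00307) and versus TFoCa (-3.69 ± 0.60, adjusted p = 0.00416). The pair of TMut lines differed in the depth of the fall. Versus WT it was -2.17 without TMut replicate 2 and -4.32 without TMut replicate 1, and versus TFoCa -2.62 and -4.77. TFoCa and WT differed in Fgfr3 by 0.45 ± 0.54 log2 units (adjusted p = 0.655). In the GENCODE M21 annotation 998 exonic bases of Fgfr3 overlap G630022F23Rik on the opposite strand. Since the strand setting of the counting is not given, it is not known how reads in these shared bases were assigned. G630022F23Rik was at 32.2 to 41.6 normalized counts in WT and TFoCa, at 4.61 in TMut replicate 1 and listed at 0 in TMut replicate 2.

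Fgfr2 was at 2869, 2944 and 3386 normalized counts in WT, at 3312 and 2332 in TFoCa, and at 706 and 565 in TMut. The TMut libraries again lay below every other library, and of those of TFoCa, replicate 1 lay inside the WT range and replicate 2 below it. The fall of Fgfr2 had a log2 fold change of -2.27 ± 0.18 in TMut versus WT (limma adjusted p = 0.000166) and of -2.14 ± 0.19 in TMut versus TFoCa (adjusted p = 0.00144). For TFoCa versus WT it was -0.14 ± 0.18 (adjusted p = 0.672). Fgfr2 shares 314 exonic bases with Ctbp2 on the same strand. Ctbp2 had a log2 fold change of -0.45 in TMut versus WT (adjusted p = 0.136).

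Fgfr1, the receptor gene with the most RNA, was at 13938, 15616 and 14740 normalized counts in WT, at 14336 and 14188 in TFoCa, and at 10871 and 12639 in TMut. Its TMut libraries lay below all others, by a smaller margin than for Fgfr2 and Fgfr3. Fgfr1 fell by 0.33 ± 0.10 log2 units in TMut versus WT (limma adjusted p = 0.0373), but the call was lost without WT replicate 2 (adjusted p = 0.132), WT replicate 3 (0.104) or TMut replicate 1 (0.211), and with TMM factors (0.0542), edgeR (0.0663) and voom (0.0557). Its log2 fold change was -0.28 ± 0.11 between TMut and TFoCa (adjusted p = 0.0872) and -0.05 ± 0.10 between TFoCa and WT (adjusted p = 0.815). Per kb of exon, Fgfr1 made up 65.2% to 70.5% of the summed level of the 3 receptor genes in WT, 59.4% and 67.4% in TFoCa, and 87.3% and 94.4% in TMut. That sum was 2003 to 2338 normalized counts per kb in WT, 2444 and 2131 in TFoCa, and 1260 and 1355 in TMut. Both TMut libraries had a lower sum and a higher Fgfr1 share than every other library. The falls of Fgfr2 and Fgfr3 stood beside falls of neural markers in the same libraries. These were 12 of 15 neural stem cell, 6 of 7 astrocyte, 8 of 8 neuron and 5 of 7 oligodendrocyte lineage markers. Their part in the result was not tested.

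Fgf2 encodes a ligand that the cells themselves can make. It was at 105, 132 and 189 normalized counts in WT, at 189 and 167 in TFoCa, and at 344 and 293 in TMut. Both TMut libraries lay above every other library, and the TFoCa libraries overlapped the WT range. Fgf2 rose in TMut versus WT (log2 fold change 1.20 ± 0.28, limma adjusted p = 0.0128), a call that was lost without TMut replicate 1 (1.08, adjusted p = 0.0639). The log2 fold change of Fgf2 was 0.84 ± 0.31 between TMut and TFoCa (adjusted p = 0.0688, and 0.0361 by DESeq2) and 0.36 ± 0.28 between TFoCa and WT (adjusted p = 0.477). Nudt6 overlaps 640 exonic bases of Fgf2 on the opposite strand. Its RNA was at 24.3 to 43.1 normalized counts over the 7 libraries and was not called in any comparison.

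The Sprouty genes encode inhibitors that act between the receptors and ERK and are themselves switched on by the pathway. Spry2 was at 2025, 2893 and 2491 normalized counts in WT, at 1977 and 2095 in TFoCa, and at 4678 and 7325 in TMut. Both TMut libraries lay above every other library, TMut replicate 2 highest, and the TFoCa libraries lay just below and just above the lowest WT library. Spry2 rose in TMut versus WT (log2 fold change 1.26 ± 0.21, limma adjusted p = 0.00303) and versus TFoCa (1.52 ± 0.23, adjusted p = 0.00349). Between TFoCa and WT it differed by -0.26 ± 0.21 (adjusted p = 0.485).

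Spry4 was at 1237, 1736 and 1849 normalized counts in WT, at 2670 and 2102 in TFoCa, and at 3133 and 5023 in TMut. The genotypes did not overlap, with WT lowest and TMut highest. Spry4 rose in TMut versus WT (log2 fold change 1.32 ± 0.25, limma adjusted p = 0.00468). Between TFoCa and WT it differed by 0.58 ± 0.25 (adjusted p = 0.187). Between TMut and TFoCa it differed by 0.74 ± 0.27 (adjusted p = 0.0640), by 1.08 without TMut replicate 1 and by 0.40 without TMut replicate 2. DESeq2 called it (adjusted p = 0.0202).

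Spry1 was at 4342, 4673 and 3182 normalized counts in WT, at 4726 and 5667 in TFoCa, and at 5907 and 7789 in TMut. These genotypes did not overlap either, though TFoCa replicate 1 lay just above WT replicate 2. Spry1 rose in TMut versus WT (log2 fold change 0.76 ± 0.19, limma adjusted p = 0.0176), a call that was lost without TMut replicate 2 (0.56, adjusted p = 0.126). Its log2 fold change was 0.37 ± 0.19 in TFoCa versus WT (adjusted p = 0.282) and 0.39 ± 0.21 in TMut versus TFoCa (adjusted p = 0.186), the latter from 0.19 without TMut replicate 2 to 0.59 without TMut replicate 1. Gm42922, which overlaps 710 exonic bases of Spry1 on the opposite strand, was at 27.6 to 67.9 normalized counts and was not called in any comparison.

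Etv4 and Etv5 encode closely related ETS transcription factors at the end of the ERK cascade. Etv4 was at 1682, 2412 and 2265 normalized counts in WT, at 4168 and 2603 in TFoCa, and at 3849 and 3459 in TMut. All 4 mutant libraries lay above WT, and both TMut libraries fell between those of TFoCa. Etv4 rose in TMut versus WT (log2 fold change 0.80 ± 0.22, limma adjusted p = 0.0249). That call was lost without WT replicate 1 (adjusted p = 0.0634), WT replicate 3 (0.0526), TMut replicate 1 (0.107) or TMut replicate 2 (0.0758). The log2 fold change in TFoCa versus WT was 0.65 ± 0.22 (adjusted p = 0.114). DESeq2 called it (adjusted p = 0.0354), as did limma once TFoCa replicate 2 was left out (0.99, adjusted p = 0.0320), but without TFoCa replicate 1 the value was 0.31 (adjusted p = 0.373). Between TMut and TFoCa it was 0.15 ± 0.24 (adjusted p = 0.665), and -0.19 without TFoCa replicate 2.

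Etv5 was at 2599, 4744 and 3770 normalized counts in WT, at 3216 and 2864 in TFoCa, and at 4435 and 8243 in TMut. TMut replicate 2 stood far above the others, TMut replicate 1 lay inside the WT range, and both TFoCa libraries lay inside it as well. Etv5 was the 1 gene of the 10 that was not called in TMut versus WT (log2 fold change 0.75 ± 0.30, limma adjusted p = 0.0870). The value moved with the TMut line left out, to 1.20 without TMut replicate 1 and 0.30 without TMut replicate 2. DESeq2 called it (adjusted p = 0.0290). TMut exceeded TFoCa by 0.99 ± 0.33 (adjusted p = 0.0510), close to the threshold. It was called without WT replicate 1 (adjusted p = 0.0390), with TMM factors (0.0481) and with a pseudocount of 8 (0.0484). Calls also came from edgeR (adjusted p = 0.0401) and DESeq2 (0.00575). The difference was 1.44 without TMut replicate 1 and 0.55 without TMut replicate 2. TFoCa versus WT gave -0.24 ± 0.30 (adjusted p = 0.665). Of the 2 TMut lines, replicate 2 had the higher Fgfr1, Spry1, Spry2, Spry4, Etv5 and Dusp6 and the lower Fgfr2, Fgfr3, Fgf2 and Etv4, and also the higher summed pluripotent cell markers (42993 against 11713) and epithelial and endoderm markers (21043 against 9698). The part of those cells in the values was not tested.

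Dusp6 encodes a phosphatase that removes the activating phosphates from ERK, and its RNA is widely used as a readout of ERK signalling. It was at 5962, 7539 and 6885 normalized counts in WT, at 10864 and 10679 in TFoCa, and at 11273 and 12457 in TMut. Every mutant library lay above every WT library, and those of TMut lay above those of TFoCa. Dusp6 rose in TFoCa versus WT (log2 fold change 0.67 ± 0.12, limma adjusted p = 0.0149) and in TMut versus WT (0.81 ± 0.12, adjusted p = 0.00164). The TFoCa call was lost without WT replicate 3, where the value was 0.68 (adjusted p = 0.0572). The difference between TMut and TFoCa was 0.14 ± 0.13 (adjusted p = 0.433), with a 95% interval from -0.16 to 0.44. In TFoCa the rise of Dusp6 stood beside rises of 10 of 12 mesenchymal markers and falls of 9 of 10 pluripotent cell markers. In TMut, where Dusp6 also rose, 6 of the mesenchymal markers rose and 2 fell. The part of these cells in the Dusp6 values was not tested.

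**Figure D3:**
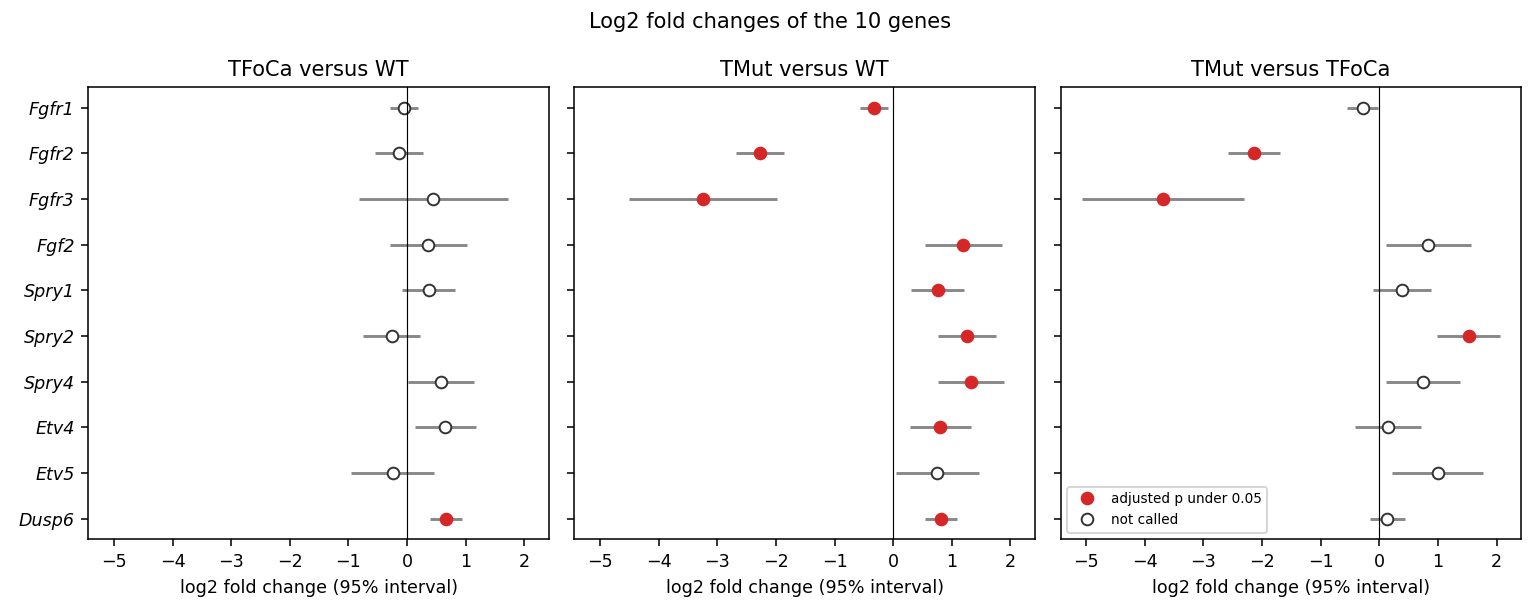
Log2 fold changes of the 10 genes in the 3 comparisons, with 95% intervals from limma as horizontal lines; filled points passed an adjusted p under 0.05 and open points did not. Only Dusp6 is filled in TFoCa versus WT, every gene but Etv5 in TMut versus WT, and Fgfr2, Fgfr3 and Spry2 in TMut versus TFoCa.

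The sequence upstream of the start site was read for 7 of the 10 genes, which have an entry in a RefSeq promoter table of build GRCm38.p6 (Fgfr1, Spry4 and Etv4 have none). Shown are the 250 bases upstream, 5′ to 3′ on the gene's strand, of the feedback genes Dusp6 (chr10:99262981-99263230, plus strand) and Spry2 (chr14:105896820-105897069, minus strand), which rose in TMut, and of the receptor genes Fgfr2 (chr7:130266809-130267058, minus strand) and Fgfr3 (chr5:33721474-33721723, plus strand, the first of its 2 entries), which fell there. Capitals mark GGAA, the core bound by ETS factors, or TTCC, the same core on the other strand.
Dusp6: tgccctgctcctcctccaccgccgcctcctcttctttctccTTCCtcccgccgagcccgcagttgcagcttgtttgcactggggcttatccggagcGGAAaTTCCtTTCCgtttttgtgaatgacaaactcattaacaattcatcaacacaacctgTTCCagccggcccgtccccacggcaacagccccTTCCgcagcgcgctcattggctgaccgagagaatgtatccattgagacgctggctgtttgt
Spry2: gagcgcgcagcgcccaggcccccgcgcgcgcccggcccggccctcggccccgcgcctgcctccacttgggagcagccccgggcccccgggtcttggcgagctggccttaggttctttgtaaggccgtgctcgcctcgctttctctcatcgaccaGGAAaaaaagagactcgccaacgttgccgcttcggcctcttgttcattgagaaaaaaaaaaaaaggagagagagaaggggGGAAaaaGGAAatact
Fgfr2: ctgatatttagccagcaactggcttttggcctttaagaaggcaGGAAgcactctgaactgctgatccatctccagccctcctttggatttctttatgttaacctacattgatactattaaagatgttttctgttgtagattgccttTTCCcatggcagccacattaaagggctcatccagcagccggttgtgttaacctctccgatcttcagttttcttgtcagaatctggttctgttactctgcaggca
Fgfr3: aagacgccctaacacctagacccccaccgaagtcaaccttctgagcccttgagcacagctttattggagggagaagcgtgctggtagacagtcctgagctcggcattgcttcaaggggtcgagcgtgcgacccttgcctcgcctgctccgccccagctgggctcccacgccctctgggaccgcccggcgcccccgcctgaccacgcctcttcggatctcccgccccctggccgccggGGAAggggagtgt
GGAA was counted on both strands 6 times for Dusp6, 3 times for Spry2, 2 times for Fgfr2 and 1 time for Fgfr3 in this entry and 5 times in its other. It occurred 1 time for Fgf2 and for Spry1, and 4 times and 0 times in the 2 entries of Etv5. Of all 32851 promoters of this length, 93.4% held GGAA at least 1 time, with a median of 3 matches. Neither CACGTG, an E-box, nor TGACTCA, an AP-1 site, was found for any of the 7 genes, and 6.02% and 4.46% of all promoters held them on either strand. CpG, the dinucleotide whose cytosine is methylated and oxidised, occurred 16 times for Dusp6, 23 for Spry2, 2 for Fgfr2, and 19 and 24 in the entries of Fgfr3, against a median of 6 (quartiles 2 and 16) over all promoters. Fgf2 had 20 CpG, Spry1 23, and Etv5 18 and 27. These matches describe the letters in the window and were not measured as binding or methylation.

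Other genes of the pathway were read from 6 lists of 122 genes, of which 116 were tested. These lists were chosen with earlier results of these data known, so their shares called are not independent of the data. In TFoCa versus WT 18 of them rose and 2 fell (median log2 fold change 0.17), in TMut versus WT 38 rose and 23 fell (0.16), and in TMut versus TFoCa 23 rose and 25 fell (-0.05). The shares called were 15.5% higher and 1.72% lower in TFoCa versus WT, where 5.25% and 3.52% of all tested genes were called, and 32.8% higher and 19.8% lower in TMut versus WT, where these were 18.4% and 20.4%. In TMut versus TFoCa 19.8% were higher and 21.6% lower, against 17.3% and 18.5%. Of 20 further ERK-responsive genes, 10 rose in TFoCa versus WT (50%, against 5.25% of all tested genes, median 0.88) and 15 in TMut versus WT (75%, against 18.4%, median 1.01), and the others were not called. DESeq2 called 1 of the 20 lower in TMut versus WT, as did limma without WT replicate 1, TFoCa replicate 1 or TFoCa replicate 2. The TFoCa count was 6 without WT replicate 2 and 6 without WT replicate 3. In these 2 fits the higher calls over all genes went from 952 to 375 and 455, and the lower calls from 638 to 120 and 183. In TMut versus WT and TMut versus TFoCa, calls over all genes also went down whenever a WT library was left out. The counts of the lists below moved beside these changes. Egr2, an immediate early transcription factor, was at 138 to 179 normalized counts in WT, 396 and 399 in TFoCa, and 496 and 567 in TMut, and rose by 1.36 ± 0.19 in TFoCa versus WT (adjusted p = 0.00827). Plaur, the urokinase receptor, rose in TMut versus WT (2.61 ± 0.27, adjusted p = 0.000426), as did the growth regulator Myc (2.01 ± 0.16, adjusted p = 0.000194). Plaur also rose in TFoCa versus WT (1.52 ± 0.27, limma adjusted p = 0.0158), a call lost without WT replicate 2 or WT replicate 3. Myc was at 602 to 775 normalized counts in WT, 1661 and 1675 in TFoCa, and 2334 and 3132 in TMut. In TMut versus TFoCa 5 of the 20 rose and 2 fell, but 1 rose and no fall was called without TFoCa replicate 2 or TMut replicate 2, and 1 fell without WT replicate 2 or WT replicate 3.

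Tested were 17 genes of the FGF family other than Fgf2, of which Fgf11, Fgf12, Fgf13 and Fgf14 do not encode secreted ligands. Of the 17, 3 rose and 2 fell in TFoCa versus WT. In TMut versus WT 3 rose and 4 fell, and in TMut versus TFoCa 4 rose and 5 fell, Fgf12 and Fgf14 among the falls in both. The share called was 29.4%, 41.2% and 52.9% in this order, against 8.77%, 38.8% and 35.8% of all tested genes. Fgf15, a ligand of the embryonic brain, was at 10059 to 11237 normalized counts in WT, 1711 and 1143 in TFoCa, and 1452 and 1022 in TMut. No mutant library of Fgf15 came near the WT range, and it fell in TFoCa (-2.93 ± 0.20, limma adjusted p = 0.00124) and in TMut (-3.13 ± 0.20, adjusted p = 0.000101) versus WT. Fgf1 was at 11.5 to 29.2 normalized counts in WT, 122 and 94.9 in TFoCa, and 554 and 659 in TMut. It rose in TMut versus WT (4.77 ± 0.43, adjusted p = 0.000259), in TMut versus TFoCa (2.48 ± 0.47, adjusted p = 0.00698), and in TFoCa versus WT (2.28 ± 0.43, adjusted p = 0.0190), the last call being lost without TFoCa replicate 1 (adjusted p = 0.0609). Fgf10 rose in TFoCa (1.72 ± 0.26, adjusted p = 0.0103) and in TMut (1.90 ± 0.26, adjusted p = 0.00134) versus WT. Fgf4, a ligand of pluripotent cells that is also on the list of their markers, was at 212 to 679 in WT, 19.2 and 49.9 in TFoCa, 469 in TMut replicate 1 and 2081 in TMut replicate 2. Its fall in TFoCa versus WT (-3.65 ± 0.73, adjusted p = 0.0234) was lost without WT replicate 2, WT replicate 3 or TFoCa replicate 1 (highest adjusted p = 0.0818). On this list 1 gene fell in TFoCa versus WT without WT replicate 2 or 3, and the counts also moved without a TFoCa or TMut library.

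Of 20 tested receptors, co-receptors and FGF-binding proteins, 3 rose in TFoCa versus WT (15%, against 8.77% of all tested genes called), 7 rose and 6 fell in TMut versus WT (65%, against 38.8%), and 3 rose and 9 fell in TMut versus TFoCa (60%, against 35.8%). Sdc2, a cell surface heparan sulfate proteoglycan, was at 3692 to 4644 normalized counts in WT, 14375 and 13687 in TFoCa, and 12557 and 7900 in TMut, and rose by 1.77 ± 0.19 in TFoCa (adjusted p = 0.00344) and 1.28 ± 0.19 in TMut (adjusted p = 0.00186) versus WT. Between TMut and WT the secreted FGF-binding protein genes Fgfbp1 and Fgfbp3 moved apart: Fgfbp1 rose (2.90 ± 0.41, adjusted p = 0.00140) and Fgfbp3 fell (-3.38 ± 0.43, adjusted p = 0.000963). Cdh2, a gene of this list, is also on the list of neural stem cell markers. Without WT replicate 3 the TFoCa count was 1, and without TFoCa replicate 2 it was 7. It was joined by 2 falls without TMut replicate 1 or TMut replicate 2. Between TMut and TFoCa 5 fell without TFoCa replicate 1 or TMut replicate 2, and 1 rose without the latter.

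Of 13 heparan sulfate enzymes, 1 rose in TFoCa versus WT (7.69%, against 8.77% of all tested genes called), 3 rose and 3 fell in TMut versus WT (46.2%, against 38.8%), and 2 rose and 1 fell in TMut versus TFoCa (23.1%, against 35.8%). Among the 6-O-sulfotransferases Hs6st2 rose in TMut versus WT (2.04 ± 0.17, adjusted p = 0.000201), while Hs6st3, at 16.5 to 25.3 normalized counts in WT and 2.30 and 1.20 in TMut, fell (-3.01 ± 0.54, adjusted p = 0.00425). Without WT replicate 1 or WT replicate 2, 1 fell in TMut versus WT, and 1 rose and 1 fell without TMut replicate 2. The rise in TFoCa versus WT, that of Glce (0.83 ± 0.18, adjusted p = 0.0324), was lost without WT replicate 1, WT replicate 2 or TFoCa replicate 2, and 3 others rose and 1 fell without TFoCa replicate 2. Without TFoCa replicate 1, 2 rose and 1 fell. Between TMut and TFoCa 1 rose without any 1 of the WT replicates, TFoCa replicate 2 or TMut replicate 2. The 1 fall there, that of Glce, was lost without WT replicate 2, TFoCa replicate 2 or TMut replicate 2, while 4 other genes fell without TFoCa replicate 2, and 2 genes fell without TFoCa replicate 1.

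Of 24 genes of adaptors and the Ras-ERK cascade, limma called 0 in TFoCa versus WT, where 8.77% of all tested genes were called. An unadjusted p under 0.05 was reached by 4 of the 24, while edgeR called 1, DESeq2 2 and voom 0. Without any 1 of the TFoCa or TMut replicates limma called 1 there as higher. TMut versus WT gave 4 rises and 6 falls (41.7% called, near the 38.8% of all tested genes), and TMut versus TFoCa 5 rises and 3 falls (33.3%, near the 35.8% of all tested genes). Shc1, an adaptor of receptor tyrosine kinases, rose in TMut versus WT (1.58 ± 0.19, adjusted p = 0.000778). Without WT replicate 2, WT replicate 3 or TMut replicate 1, 3 genes fell in TMut versus WT, and 2 rose without TMut replicate 2. Between TMut and TFoCa 1 fell without WT replicate 2, TMut replicate 1 or TMut replicate 2, and 3 and 2 rose without TFoCa replicate 2 and TMut replicate 2.

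Of 22 other inhibitors and phosphatases, 1 rose in TFoCa versus WT (4.55%, against 8.77% of all tested genes called), 6 rose and 4 fell in TMut versus WT (45.5%, against 38.8%), and 4 rose and 5 fell in TMut versus TFoCa (40.9%, against 35.8%). In TMut the dual-specificity phosphatase genes did not move together. Dusp2, at 34.5 to 55.2 normalized counts in WT, 103 and 90.1 in TFoCa, and 419 and 576 in TMut, rose in TMut versus WT (3.48 ± 0.30, adjusted p = 0.000227), as did Dusp9 (2.48 ± 0.26, adjusted p = 0.000464) and Dusp5 (1.99 ± 0.19, adjusted p = 0.000321), whereas Dusp8 fell (-3.11 ± 0.27, adjusted p = 0.000240). Il17rd, which encodes the membrane inhibitor Sef and was chosen after its values were seen, was at 1796 to 2177 normalized counts in WT, 2125 and 1812 in TFoCa, and 4750 and 6243 in TMut. It rose by 1.49 ± 0.15 in TMut versus WT (adjusted p = 0.000402). The 1 rise in TFoCa versus WT, that of Rasa2 (0.57 ± 0.14, adjusted p = 0.0497), was lost without any 1 of the WT or TFoCa replicates, and 2 rose without TMut replicate 1 or TMut replicate 2. Between TMut and TFoCa 3 fell without WT replicate 2, WT replicate 3 or TFoCa replicate 2, and 2 without TMut replicate 2.

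**Figure D4:**
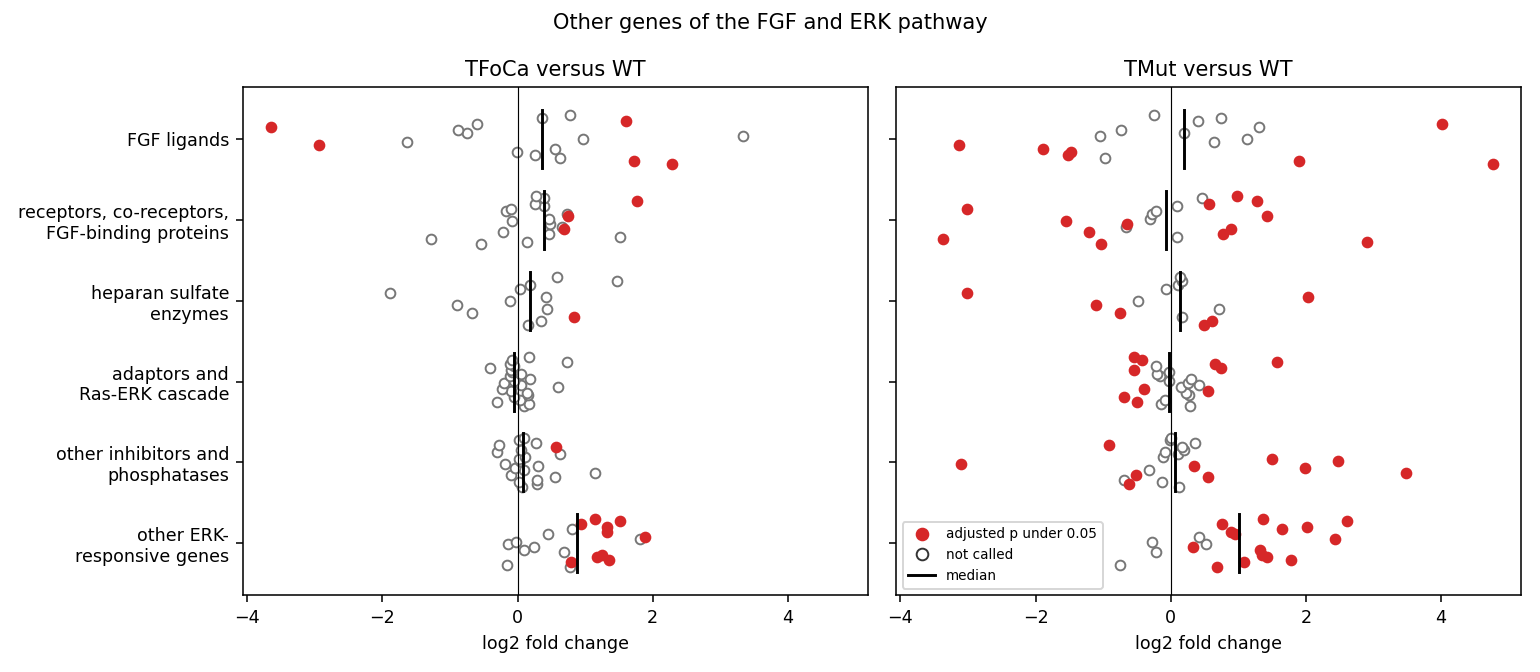
Log2 fold changes of 116 other genes of the FGF and ERK pathway in TFoCa versus WT and TMut versus WT, 1 row per list and 1 point per gene, with filled points for an adjusted p under 0.05 and a black bar at the median of each list. The ERK-responsive genes have medians of 0.88 and 1.01, and the adaptors and Ras-ERK cascade have medians of -0.05 and -0.03.

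For the 3 genes with the widest range of genotype means (Fgfr3, Fgfr2 and Spry2), the genes with the most similar pattern over the 7 libraries were sought among 13188 genes with a mean normalized count of 100 or more. Likeness was the root mean square difference of log2 values, each gene centred on its own mean. Lsamp (0.14) and Tenm2 (0.21) were closest to Fgfr3, Glcci1 (0.10) and Zbtb20 (0.12) to Fgfr2, and Akap12 (0.065) and Rbpms (0.11) to Spry2. Lsamp was at 1055 to 1633 normalized counts in WT, 1895 and 1541 in TFoCa, and 320 and 82.8 in TMut, with TMut replicate 2 lowest as for Fgfr3. Akap12 was at 3386 to 4801 in WT, 3010 and 3167 in TFoCa, and 8032 and 12120 in TMut, with TMut replicate 2 highest as for Spry2.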

How the data were processed

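RNA from 7 libraries of mouse neural stem cells (3 WT, 2 TFoCa and 2 TMut lines) was sequenced, and gene counts were compared between genotypes. The submitters' processing notes name build mm39 and, for the steps run by the authors, STAR 2.7.3a, Trim Galore 0.6.5, DESeq2, SAMtools and featureCounts. Their settings, the annotation and the strand of counting are not given in the sources used here. The deposited values (signal) are gene counts divided by a DESeq2 size factor. Every value was a whole multiple of 1 read within 0.001 read, in WT replicate 2 only when its smallest value was taken as 2 reads rather than 1. Even numbers made up 70.3% to 79.3% of the counts between 1 and 20 reads. Both mates of a pair may thus have been counted, and count models may then overstate precision, so these are alternatives only.

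Genes at 10 or more normalized counts in at least 2 libraries (18134 of 18145) were fitted as log2(value + 1) in R 4.3.3 with limma 3.58.1 (trend on), using 1 model of the 3 genotypes that leaves 4 residual degrees of freedom. The fit was tested on simulated counts with 1 common dispersion for all genes. Unchanged genes kept their WT means, and 100 genes were changed by each size, all at a WT mean of 100 or more. Of changes of 1 log2 unit it found 39% in TFoCa versus WT (17830 genes, 4 false calls). It found 37% in TMut versus WT (17829 genes, 15 false calls) and 32% between TMut and TFoCa (17834 genes, 13 false calls). In each comparison it found 100% of changes of 2. Many more genes were called in the data, so these shares need not hold there. Alternatives were pseudocounts of 0.5 and 8, no filter or a mean of 50 or more, TMM and upper quartile factors, robust eBayes, a replicate block, edgeR 4.0.16, DESeq2 1.42.0, voom, a fit to 2 genotypes, a threshold of 0.01, and leaving out each library.

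Exonic lengths and overlaps came from GENCODE M21 and promoters from RefSeq, both on GRCm38, a build other than that of the files, so no positions were read from the files. The 10 genes and all lists were chosen with earlier results of these data known. From each wider list the rule takes up to 3 called genes per direction with the largest change; the text names fewer, a reduction made after the values were seen.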

Additional observations from a re-analysis of the deposited data

How the results depend on the processing

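Over the alternatives, 538 fold changes of single genes kept their direction and their side of the threshold, 16 lost a call, 14 gained one and 2 changed sign. The changes of sign were those of Fgfr2 in TFoCa versus WT (-0.39 to 0.12 over the fits that each left out a library, 0.12 without TFoCa replicate 2) and Etv4 in TMut versus TFoCa (-0.19 to 0.49, -0.19 without TFoCa replicate 2), neither called in any of these fits. In TFoCa versus WT limma called 1 of the 10 genes, DESeq2 2, and leaving out a library 0 to 2. At an adjusted p under 0.01 it called 0, and 3 had an unadjusted p under 0.05; edgeR and voom called 1 each at 0.05. In TMut versus WT 9 genes were called, 5 at an adjusted p under 0.01. At 0.01 the calls over all genes went from 3344 higher and 3699 lower to 1815 and 2193. Without a WT library 7 or 8 of the 10 were called, and over all genes 2229 to 2785 higher and 2573 to 3131 lower. In TMut versus TFoCa 3 were called, 6 by DESeq2, and 3 or 4 without a WT library. Over all genes limma called 3141 higher and 3350 lower there, and DESeq2 3485 and 3722. Without a WT library limma called 2411 to 2817 higher and 2607 to 2994 lower. Over all genes in TFoCa versus WT, DESeq2 called 1688 higher and 1257 lower, against 952 and 638 by limma, and 269 and 73 passed 0.01. With the replicate number as a block 0 of the 10 genes were called in TFoCa versus WT (3 at an unadjusted p under 0.05), 7 in TMut versus WT and 4 in TMut versus TFoCa. It ended the calls of Dusp6 in TFoCa versus WT (adjusted p = 0.0605) and of Fgfr1 (0.103) and Etv4 (0.0681) in TMut versus WT, and called Etv5 in TMut versus TFoCa (0.0433). The block lowered the counts over all genes too, to 363 higher and 192 lower in TFoCa versus WT, from 3344 and 3699 to 2146 and 2474 in TMut versus WT, and from 3141 and 3350 to 2389 and 2642 in TMut versus TFoCa. It called 4 rather than 10 of the ERK-responsive genes in TFoCa versus WT. Deviations of same-numbered libraries correlated by 0.0192 to 0.185, and those of libraries with other numbers by -0.185 to 0.108. In a group of 2 the deviations mirror each other, so these values cannot decide whether the lines are paired. The numbers were not taken to pair the lines in the main fit. Only WT has a replicate 3, which the block leaves without weight. All 10 genes were at 105 normalized counts or more in every library; how depth bears on their calls was not tested.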
